A study of Mus musculus with 12 samples.

Results

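The 26S proteasome is described here by the mRNA of its subunits, activators, inhibitor and assembly chaperones in mouse pluripotent cells. Members were all genes whose symbol is Psm followed by a letter from a to g and a number, which gave 48 of the 57180 genes in the files. They fall into 7 constitutive 20S alpha subunits, 7 constitutive 20S beta subunits, 5 tissue-specific or inducible 20S subunits, 6 ATPases and 11 non-ATPases of the 19S particle, 4 activators, 1 inhibitor, 4 chaperones of 20S assembly and 3 chaperones of 19S assembly. Bulk RNA-seq was available for 12 libraries of E14-dox-CRISPRi mouse ESCs, 3 in each of 4 groups. The groups were control (negative/scramble) cells, called Neg, and cells with repression of Pcx, Me1 and Me2 together, called 3xKD, each as ESCs and as EpiLCs at day 2 of induction. Pcx encodes pyruvate carboxylase, and Me1 and Me2 encode malic enzymes. All 4 groups descend from 1 picked clone that carries the CRISPRi repressor under a doxycycline-responsive promoter, and the Neg and 3xKD lines differ in their guides. The labels do not state doxycycline for any library. The study's legend on metabolic gene expression describes Neg and 3xKD cells of both states as treated with doxycycline. Its methods give DMSO or doxycycline for the RNA-seq cultures and low oxygen for the cell lines. ESCs were kept in N2B27 with 2i and Lif, and EpiLCs were made in medium with Activin A, Fgf2 and XAV939.

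The proteasome degrades proteins that carry ubiquitin chains. The 20S core is a stack of alpha and beta rings whose beta subunits Psmb5, Psmb6 and Psmb7 hold the catalytic sites, and the 19S particle binds ubiquitin, unfolds the substrate with its ring of Psmc ATPases and feeds it into the core. In immune cells or under interferon, Psmb8, Psmb9 and Psmb10 replace the catalytic subunits. The activators Psme1 and Psme2 (together PA28 alpha/beta), Psme3 (PA28 gamma) and Psme4 (PA200) can cap the core in place of 19S. When proteasome function falls, the transcription factor Nfe2l1, cleaved with the help of Ddi2, raises subunit genes together.

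Total estimated counts lay between 11221023 and 19652197 per library. The targeted genes were lower in every 3xKD library than in every Neg library of the same state, by between 0.89 and 1.14 on the log2 scale for Pcx, Me1 and Me2 in ESCs and EpiLCs. The cell-type field of the labels names ESCs for all Neg and EpiLCs for all 3xKD libraries, so states were taken from the titles. The 10 naive markers summed to 5181 to 5344 CPM (counts relative to the normalised library size) in Neg and 4029 to 4105 CPM in 3xKD libraries titled ESC, and to 342.9 to 357.7 CPM in Neg and 475.8 to 489.5 CPM in 3xKD libraries titled EpiLC. The 8 formative markers summed to 268.9 to 282.4 CPM in Neg ESCs, 301.8 to 309.9 CPM in 3xKD ESCs, 3091 to 3463 CPM in Neg EpiLCs and 1772 to 1837 CPM in 3xKD EpiLCs, so the state markers also moved with 3xKD. All 8 of the formative genes were lower in 3xKD than in Neg EpiLCs. Of the 10 naive genes, 9 were lower in 3xKD than in Neg ESCs, whereas 6 were higher and 1 lower in 3xKD than in Neg EpiLCs. The 5 general pluripotency genes summed to 1628 to 1649 CPM in Neg and 1406 to 1440 CPM in 3xKD ESCs, and to 2444 to 2645 and 1958 to 2004 CPM in EpiLCs. Markers of other cell types were at or below 33.1 CPM in sum, and some of these sums also moved with 3xKD. The 7 primitive endoderm genes summed to 22.4 to 25.1 CPM in Neg and 30.6 to 33.1 CPM in 3xKD ESCs, and to 28.3 to 33.1 and 24.1 to 25.7 CPM in EpiLCs. The 4 fibroblast or feeder genes summed to 4.34 to 5.32 and 7.86 to 8.56 CPM in ESCs, and to 3.76 to 4.77 and 5.99 to 7.38 CPM in EpiLCs. The 4 trophoblast genes summed to 3.92 to 5.10 and 2.21 to 2.74 CPM in ESCs, and to 1.48 to 2.34 and 2.05 to 3.00 CPM in EpiLCs. The 4 mesendoderm genes overlapped between lines, at 27.0 to 31.8 CPM in ESCs and 18.9 to 22.2 CPM in EpiLCs. The 3 immune genes are given with the inducible subunits. The part of these markers in the values of the proteasome genes was not tested. In bulk RNA, fewer cells of a type and less RNA per cell cannot be told apart.

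Per transcript length, the 17 member genes of the 19S particle summed to less than the 14 genes of the constitutive core. The median of these 19S genes was also lower, and the inducible subunits were far below both. Adrm1 and Sem1, which also encode 19S subunits, fall outside the symbol rule, so the 19S sums here leave out part of the particle. In TPM (transcript abundance corrected for length), the 19S genes summed to between 84.1% and 94.9% of the 20S core genes in each of the 12 libraries. In Neg ESCs the means of the 14 core subunits ranged from 30.2 TPM for Psma2 to 198 TPM for Psma3, with a median of 88.4 TPM. The 17 member genes of the 19S particle ranged there from 43.5 TPM for Psmd7, a lid subunit, to 119 TPM for Psmc6, an ATPase, with a median of 74.7 TPM. Among these 31 genes ranked by mean, a gene exceeded the next one in all 3 libraries for 12 of the 30 neighbouring pairs in Neg ESCs, so most neighbours in the order were not separated. The spread of TPM between libraries of a group was wide, with member sums of 2616, 3684 and 2673 TPM in the Neg ESCs, while the 10 genes with the highest TPM, led by the small RNA Rn7s1, held between 33.5% and 48.2% of the TPM of a library. The members' share of all counts was between 0.487% and 0.545%, and levels across libraries are therefore given in CPM below.

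**Figure D1:**
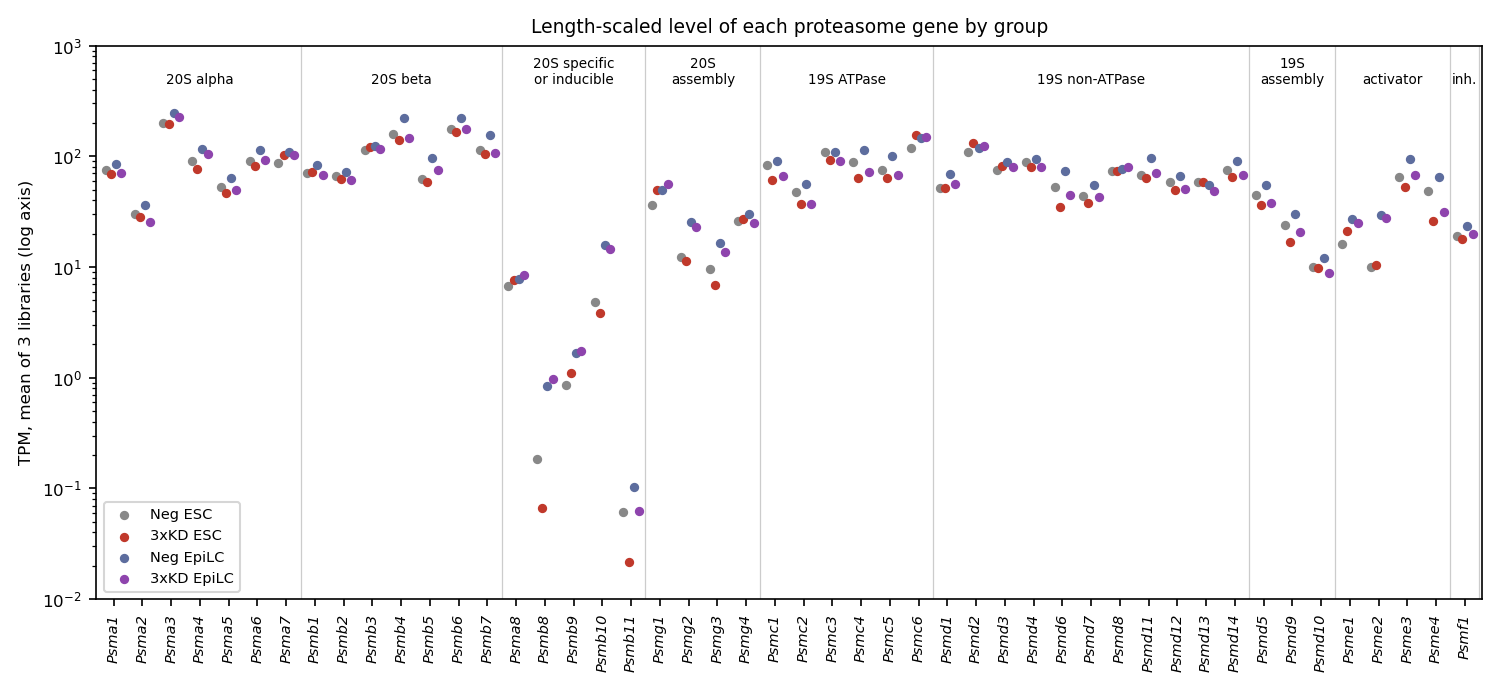
Mean TPM of 3 libraries (log axis) for each of the 48 genes, coloured by group and ordered by class. The constitutive 20S and 19S genes lie between 25.6 and 247 TPM in all groups, whereas Psmb8, Psmb9 and Psmb11 lie below 2 TPM.

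The tissue-specific and inducible core subunits were minor forms in both states. Psmb10 stood at 4.30 ± 1.47% of Psmb7, the subunit it replaces, in Neg ESCs and at 10.4 ± 0.994% in Neg EpiLCs (SD, n = 3, ratio of TPM values). In 3xKD cells the same ratio was 3.64 ± 0.882% in ESCs and 13.6 ± 1.45% in EpiLCs. Psmb10 itself was at 15.9 ± 0.894 TPM in Neg and 14.7 ± 2.61 TPM in 3xKD EpiLCs. Psmb7 was at 154 ± 6.08 and 108 ± 12.1 TPM there. The main Psmb10 transcript held between 0% and 84.6% of the gene's counts in a library. Psmb9 stood at 0.506 ± 0.301% of Psmb6 in Neg ESCs and at no more than 1.17% in any library. Psmb8 had no more than 1.56% of the TPM of Psmb5 in any library. Psma8, the spermatid form of the alpha ring, stood at 7.80 ± 0.222% of Psma7 in Neg ESCs and between 6.39% and 8.46% in all libraries. The thymus-specific Psmb11 was counted between 1 and 5 times per library, too few for a fold change.

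The comparison of 3xKD with Neg asks how these genes differed, in each state, between cells with and without repression of Pcx, Me1 and Me2. The study lists 1 Neg line and 1 3xKD line, so repression and other differences between the lines cannot be told apart. In ESCs, 11 of 48 members were higher and 6 were lower in 3xKD at an adjusted p under 0.01, with a median log2 fold change of 0.03. Over all 25446 genes tested, 15.6% were higher and 16.0% lower, and among the 9634 genes whose mean reached 10 CPM, as it did for 44 of the members, 27.3% were higher and 33.4% lower. In EpiLCs, 7 members were higher and 21 lower with a median of -0.11. The background here was 14.3% and 15.6% of all genes and 25.1% and 35.1% of genes at 10 CPM or more, whose median was -0.06. The members past the test made up 35.4% in ESCs and 58.3% in EpiLCs. With transcript-length offsets, 48 of the 99 member values past the test over all comparisons no longer passed, and fewer members were higher in ESCs. Few members also passed the fold limit of 0.58 (log2). They were Psmb9 and Psme2 upward and Psme4 downward in ESCs, where 8.5% of all genes passed upward and 6.76% downward. In EpiLCs they were Psmb9 upward and Psme4 downward, against 7.88% and 5.35% of all genes. Adjusted p-values throughout are those of the quasi-likelihood test in edgeR, with the Benjamini-Hochberg correction over all genes tested. Past the test in both states, 6 members were higher and 6 lower. The higher ones were Psmb9, Psmc6, Psmd2, Psmd8, Psme1 and Psmg1, and the lower ones Psmb4, Psmc2, Psmc4, Psmd6, Psme3 and Psme4. The share of all genes past the test in both states is not given here, so these counts have no background beside them. Psmd1, a scaffold of the 19S base, was the 1 member past the test in opposite directions, with 0.14 in ESCs and -0.11 in EpiLCs. The EpiLC call of Psmd1 was marginal (adjusted p = 0.0086). It was lost with DESeq2, with RLE or upper-quartile factors, with library size alone, with no filter, with length offsets, with the replicate block (adjusted p = 0.014) and on leaving out any library other than 3xKD EpiLC replicate 3.

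**Figure D2:**
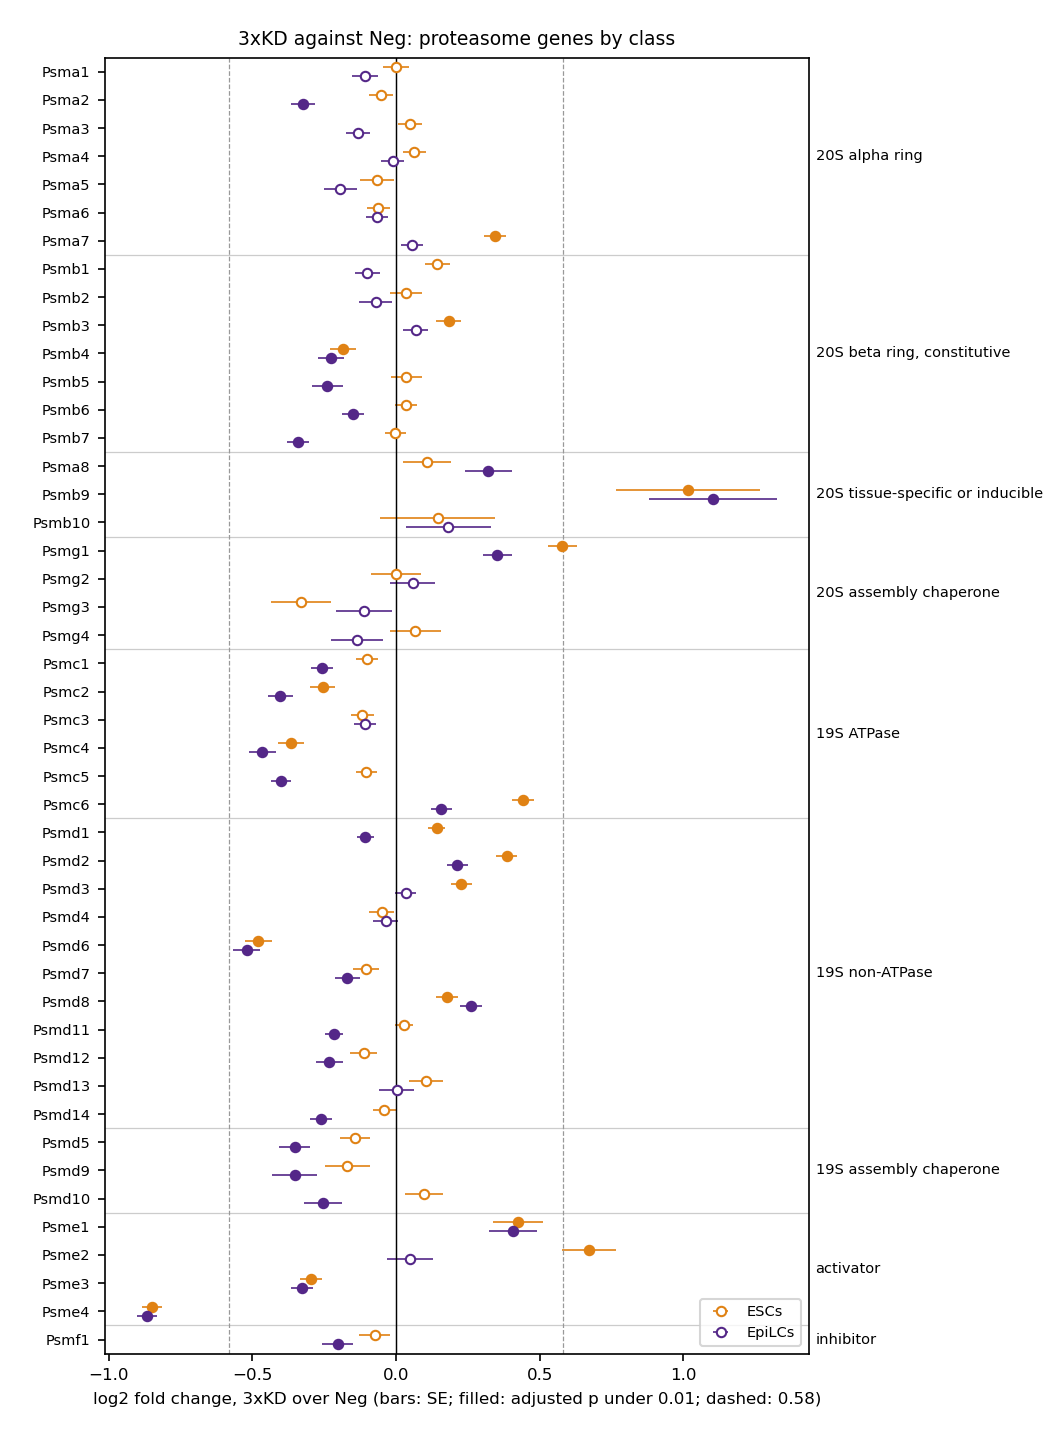
Log2 fold change of 3xKD over Neg with its standard error for 46 members by class, in ESCs (orange) and EpiLCs (purple). Filled points passed adjusted p under 0.01 and dashed lines mark 0.58. Psme4 lies at -0.85 and -0.87 and Psmb9 at 1.01 and 1.10, while most 20S and 19S genes lie within the dashed lines. Psmb8 and Psmb11 are left out for low counts.

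Psme4 showed the largest fall among the members in both states. PA200, its product, is a large single-chain cap of the 20S core. The gene (ENSMUSG00000040850, GRCm39 chr11:30721725-30830376, plus strand, 47 exons) was at 434, 456 and 450 CPM in Neg ESCs and at 245, 246 and 254 CPM in 3xKD ESCs. In EpiLCs it was at 474, 483 and 482 CPM in Neg cells and at 264, 274 and 252 CPM in 3xKD cells. All 3xKD libraries were below all Neg libraries, with a log2 fold change of -0.85 ± 0.04 (SE, adjusted p = 2.0e-11) in ESCs and -0.87 ± 0.04 (adjusted p = 2.0e-11) in EpiLCs. This is a 1.80-fold and a 1.82-fold difference.

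Psme3, a nuclear activator, was at 178 ± 7.26 CPM in Neg and 145 ± 5.18 CPM in 3xKD ESCs, and at 204 ± 4.19 and 163 ± 5.55 CPM in EpiLCs (SD, n = 3). It fell by 0.30 in ESCs (adjusted p = 1.1e-05) and by 0.33 in EpiLCs (adjusted p = 3.5e-06). Psme1 was at 17.2, 16.7 and 13.6 CPM in Neg and at 22.4, 21.5 and 19.2 CPM in 3xKD ESCs, and at 17.2, 16.1 and 17.1 against 22.4, 22.4 and 22.1 CPM in EpiLCs. The groups did not overlap in either state, and Psme1 rose by 0.42 ± 0.09 in ESCs (adjusted p = 0.00073) and 0.41 ± 0.08 in EpiLCs (adjusted p = 0.00096). Psme2, its partner, was at 6.47, 6.88 and 7.55 CPM in Neg and 12.3, 10.8 and 10.5 CPM in 3xKD ESCs, a rise of 0.67 ± 0.09 (adjusted p = 1.9e-05). In EpiLCs Psme2 was at 19.9 ± 1.00 CPM in Neg and 20.5 ± 1.11 CPM in 3xKD cells, and the groups overlapped (adjusted p = 0.70). Psmf1, the inhibitor PI31, was at 44.2 ± 1.83 and 42.1 ± 1.98 CPM in ESCs (adjusted p = 0.32) and at 46.8 ± 2.76 and 40.6 ± 0.470 CPM in EpiLCs, where it fell by 0.20 (adjusted p = 0.0063). That call was lost with DESeq2, with library size alone, with no filter, and on leaving out Neg replicate 2 or 3 or any 1 of the 3xKD EpiLC libraries. With the authors' transcript lengths as offsets, Psme1 in EpiLCs moved to 0.05 and Psme2 in ESCs to 0.26, neither past the test. The exons of Psme2 overlap those of Rnf31 on the opposite strand by 731 bases, and 66.1% of its 31-base words also occur in Psme2b, which had 19 counts over all libraries.

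Psmb9 was the 1 member that passed the fold limit upward in both states. This gene of the immunoproteasome (ENSMUSG00000096727, chr17:34400960-34406738, minus strand) had few reads, with 7, 15 and 15 counts in Neg and 24, 25 and 30 in 3xKD ESCs. In EpiLCs it had 19, 21 and 22 counts in Neg and 46, 46 and 44 in 3xKD cells, and the normalised values did not overlap in either state. The log2 fold change was 1.01 ± 0.25 (adjusted p = 0.0035) in ESCs and 1.10 ± 0.22 (adjusted p = 0.00069) in EpiLCs. The related Psmb10 was at 2.02 ± 0.401 and 2.20 ± 0.472 CPM in Neg and 3xKD ESCs and at 7.84 ± 0.247 and 8.90 ± 1.26 CPM in EpiLCs (adjusted p = 0.62 and 0.38). Psmb8 had 2 counts in all Neg ESCs and 3 in all 3xKD ESCs, both at or under the floor of 3 counts, so no fold is given there. In EpiLCs it had 33 counts in Neg and 54 in 3xKD cells, a ratio of 1.61 with a counting interval of 1.02 to 2.56 (95%), which leaves out the spread between libraries (adjusted p = 0.33). Psma8 was at 12.5 ± 0.0183 and 13.5 ± 1.14 CPM in ESCs (adjusted p = 0.34) and at 12.2 ± 0.645 and 15.3 ± 0.760 CPM in EpiLCs, where it rose by 0.32 (adjusted p = 0.0048), a call lost with DESeq2 and without Neg replicate 2 or 3 or 3xKD replicate 1 or 2. The Psmb9 exons share 743 bases with those of Tap1, a peptide transporter gene on the opposite strand that rose by 2.02 in ESCs and 0.78 in EpiLCs. The kit keeps strand, but whether the counting used it is not given in the sources used here, and the Psmb9 call was lost with length offsets in both states (0.70 and 0.31) and with DESeq2 in ESCs (1.02, adjusted p = 0.024). In ESCs the adjusted p was also 0.014, 0.017 and 0.020 without Neg replicate 1, Neg replicate 3 and 3xKD replicate 3. The 3 immune markers, mostly Cd68, summed to between 7.57 and 8.21 CPM in Neg ESCs and 14.1 to 16.5 CPM in 3xKD ESCs, while the leukocyte gene Ptprc stayed at or below 0.20 CPM and Cd74 at or below 1.74 CPM in all libraries. The part of these markers in the Psmb9 and Psme2 values was not tested.

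The constitutive core moved little. In ESCs, 2 of its 14 genes were higher and 1 was lower, and in EpiLCs none was higher and 5 were lower, with medians of 0.03 and -0.12. Among genes at 10 CPM or more, 27.3% were higher and 33.4% lower in ESCs, and 25.1% and 35.1% in EpiLCs. Psma7 had the largest change in ESCs, from 94.9, 88.5 and 89.8 CPM in Neg to 114, 119 and 114 CPM in 3xKD cells (0.35 ± 0.04, adjusted p = 1.4e-06). In EpiLCs it was at 95.3 ± 1.76 and 99.1 ± 3.12 CPM (0.06, adjusted p = 0.29). Psmb3 also rose in ESCs, by 0.18 (adjusted p = 0.0027), although 73.8% of its 31-base words occur in other annotated transcripts, and the adjusted p was 0.015 without Neg replicate 1 and 0.020 without 3xKD replicate 2. Psmb4 fell in both states, by 0.18 (adjusted p = 0.0032) and 0.23 (adjusted p = 0.00063), the call in ESCs being lost with length offsets and on leaving out Neg ESC replicate 2, 3xKD ESC replicate 1 or 3, Neg EpiLC replicate 1 or 2 or 3xKD EpiLC replicate 3, and Pogz overlaps it on the opposite strand by 306 exon bases. In EpiLCs the catalytic subunits fell, Psmb7 by 0.34 (adjusted p = 1.5e-06), Psmb5 by 0.24 (adjusted p = 0.0017) and Psmb6 by 0.15 (adjusted p = 0.0045), as did Psma2 by 0.32 (adjusted p = 7.8e-06). Psmb5 shares 33.8% of its 31-base words with Gm3375, a copy that held 10706 counts over all libraries, and its reads cannot be fully told from those of the copy.

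The 19S particle had genes that moved in both directions, as did genes at 10 CPM or more. In ESCs, 5 of its 17 member genes were higher and 3 lower, and in EpiLCs 3 were higher and 10 lower, with medians of -0.05 and -0.17. The background at 10 CPM or more was 27.3% higher and 33.4% lower in ESCs, and 25.1% and 35.1% in EpiLCs. Psmd6, which encodes the lid subunit Rpn7 (chr14:8348762-8357589, plus strand), was at 90.3, 88.6 and 89.5 CPM in Neg and 66.7, 63.0 and 62.7 CPM in 3xKD ESCs. In EpiLCs it was at 111, 98.9 and 99.6 CPM in Neg and 70.2, 72.2 and 73.8 CPM in 3xKD cells. It fell by 0.48 ± 0.05 (adjusted p = 3.8e-07) in ESCs and by 0.52 ± 0.05 (adjusted p = 1.4e-07) in EpiLCs, the largest fall of a 19S gene in both.

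The ATPase ring showed a fall in Psmc4 and a rise in Psmc6. Psmc4 (chr7:27738180-27749526, minus strand) was at 158, 177 and 170 CPM in Neg and 129, 132 and 132 CPM in 3xKD ESCs, and at 187, 167 and 185 CPM in Neg and 131, 131 and 128 CPM in 3xKD EpiLCs. Its log2 fold change was -0.36 ± 0.05 (adjusted p = 6.2e-06) and -0.46 ± 0.05 (adjusted p = 4.1e-07), with no overlap in either state. Psmc6 was at 165, 164 and 162 CPM in Neg and 224, 214 and 229 CPM in 3xKD ESCs, a rise of 0.44 ± 0.04 (adjusted p = 6.8e-08). In EpiLCs it was at 166 ± 7.48 and 186 ± 3.50 CPM, a rise of 0.16 ± 0.04 (adjusted p = 0.0027) that did not pass without EpiLC replicate 2 or 3 of either line or with only the compared groups fitted. Psmc2 fell by 0.26 (adjusted p = 0.00015) and 0.40 (adjusted p = 1.3e-06), and Psmc1 and Psmc5 passed the test in EpiLCs with -0.26 and -0.40. Psmc3 was at -0.12 and -0.11 and did not pass in either state (adjusted p = 0.024 and 0.039).

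Among the non-ATPases, the base scaffold Psmd2 rose from 429, 465 and 450 CPM to 588, 586 and 582 CPM in ESCs (0.38 ± 0.04, adjusted p = 2.0e-07) and from 409 ± 16.0 to 475 ± 4.29 CPM in EpiLCs (0.21, adjusted p = 0.00014). Copies of Psmd2 share 44.4% of its 31-base words, and the most similar, Gm63653, held 270 counts in all. The lid subunit Psmd8 rose by 0.18 (adjusted p = 0.0014) and 0.26 (adjusted p = 4.1e-05), and Psmd3 by 0.23 in ESCs (adjusted p = 6.5e-05) and was at 0.03 in EpiLCs (adjusted p = 0.53). In EpiLCs the deubiquitinase Psmd14 and the lid subunits Psmd11, Psmd12 and Psmd7 fell by 0.26, 0.22, 0.23 and 0.17. The ubiquitin receptor Psmd4 was at -0.05 and -0.04, and Psmd13 was at 0.11 in ESCs, with none of these past the test.

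Assembly chaperones were led by Psmg1. Psmg1 (PAC1, chr16:95778481-95792202, minus strand), which pairs with Psmg2 to start the alpha ring, was at 43.5, 44.4 and 48.2 CPM in Neg and 69.1, 67.8 and 67.1 CPM in 3xKD ESCs. In EpiLCs it was at 54.3, 53.9 and 48.9 CPM in Neg and 66.4, 65.5 and 68.6 CPM in 3xKD cells. The rise was 0.579 ± 0.05 in ESCs (adjusted p = 9.6e-08), just under the fold limit, and 0.35 ± 0.05 in EpiLCs (adjusted p = 2.4e-05). Psmg2, at 16.0 ± 1.30 and 15.9 ± 0.329 CPM in ESCs, had an adjusted p of 1.0, and Psmg3 and Psmg4 did not pass in either state. The 19S chaperones Psmd5, Psmd9 and Psmd10 did not pass in ESCs and fell by 0.35, 0.35 and 0.25 in EpiLCs (adjusted p = 3.8e-05, 0.0014 and 0.0056). The Psmd10 call was lost with DESeq2, with library size alone, with no filter, with length offsets, with the replicate block (adjusted p = 0.010), with only the compared groups fitted and without any 1 of the Neg EpiLC libraries or 3xKD EpiLC replicate 1 or 2.

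**Figure D3:**
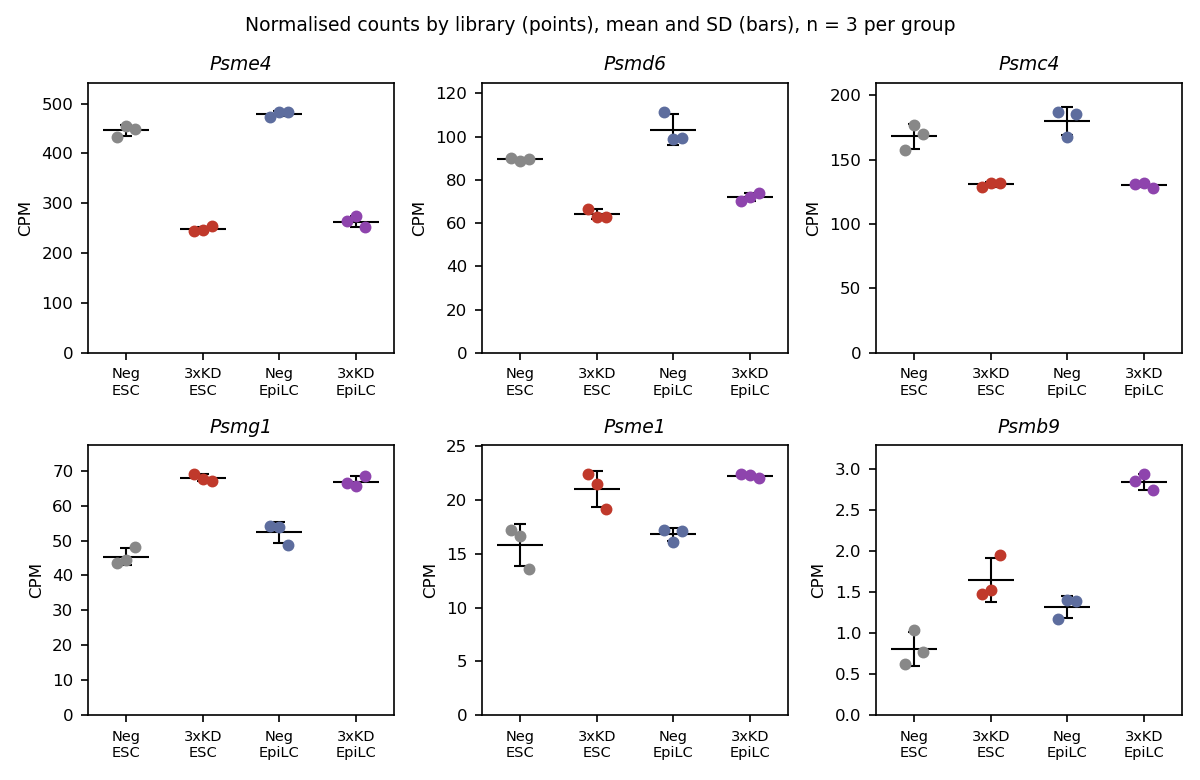
CPM of Psme4, Psmd6, Psmc4, Psmg1, Psme1 and Psmb9 in each library (points) with group mean and SD (n = 3). In each panel the 3xKD libraries lie on the same side of the Neg libraries in ESCs and in EpiLCs, without overlap.

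The promoters of these 6 members are shown because they were past the test in the same direction in both states with at least 0.35 (log2) in each, a choice made after their values were seen. Each sequence is the 250 bases before the RefSeq start site on the gene's strand (GRCm38.p6), with capitals for matches, on either strand, to an antioxidant response element (TGACNNNGC), an ETS core (CCGGAAG), a nuclear respiratory factor 1 motif (TGCGCA) or a YY1 motif (AAGATGG). Their positions are chr11:30771525-30771774 (plus) for Psme4, chr14:14120946-14121195 (minus in this build, while the gene lies on the plus strand of GRCm39) for Psmd6, chr7:28050093-28050342 (minus) for Psmc4, chr16:95990961-95991210 (minus) for Psmg1, chr14:55578244-55578493 (plus) for Psme1 and chr17:34187331-34187580 (minus) for Psmb9.
Psme4: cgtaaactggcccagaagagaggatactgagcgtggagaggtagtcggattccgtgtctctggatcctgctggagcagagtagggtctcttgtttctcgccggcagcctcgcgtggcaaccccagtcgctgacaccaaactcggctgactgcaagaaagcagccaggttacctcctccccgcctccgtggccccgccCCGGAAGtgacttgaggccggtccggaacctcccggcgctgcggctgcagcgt
Psmd6: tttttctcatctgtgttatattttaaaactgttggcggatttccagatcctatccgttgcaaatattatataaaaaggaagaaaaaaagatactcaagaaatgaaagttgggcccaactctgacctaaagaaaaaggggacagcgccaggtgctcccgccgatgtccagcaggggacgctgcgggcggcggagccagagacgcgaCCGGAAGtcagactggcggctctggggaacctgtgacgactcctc
Psmc4: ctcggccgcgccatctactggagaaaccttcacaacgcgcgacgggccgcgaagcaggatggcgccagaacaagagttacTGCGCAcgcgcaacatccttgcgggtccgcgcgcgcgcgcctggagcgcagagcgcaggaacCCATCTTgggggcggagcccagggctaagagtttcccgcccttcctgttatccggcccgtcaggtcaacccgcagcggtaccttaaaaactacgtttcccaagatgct
Psmg1: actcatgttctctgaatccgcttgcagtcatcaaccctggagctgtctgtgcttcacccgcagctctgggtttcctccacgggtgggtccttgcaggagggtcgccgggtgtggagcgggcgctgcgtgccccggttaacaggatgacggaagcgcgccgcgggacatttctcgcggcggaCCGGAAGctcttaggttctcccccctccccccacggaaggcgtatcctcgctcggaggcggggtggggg
Psme1: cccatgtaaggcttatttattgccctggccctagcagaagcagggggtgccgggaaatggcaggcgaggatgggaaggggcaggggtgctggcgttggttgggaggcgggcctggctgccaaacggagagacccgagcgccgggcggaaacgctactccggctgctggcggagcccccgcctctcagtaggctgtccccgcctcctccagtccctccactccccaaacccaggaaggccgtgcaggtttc
Psmb9: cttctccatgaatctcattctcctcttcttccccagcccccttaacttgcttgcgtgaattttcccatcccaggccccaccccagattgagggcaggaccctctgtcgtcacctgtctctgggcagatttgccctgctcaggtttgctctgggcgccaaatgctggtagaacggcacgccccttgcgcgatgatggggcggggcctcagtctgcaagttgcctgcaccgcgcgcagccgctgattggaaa

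Psme4, Psmd6 and Psmg1 held the ETS core at 53, 45 and 69 bases before the start, although Psme4 and Psmd6 fell and Psmg1 rose. Psmc4 held the nuclear respiratory factor 1 motif at 170 and the YY1 motif at 108 bases before the start, while Psme1 and Psmb9 held none of these 4. Psme4 also has an antioxidant response element on the minus strand at 7 bases before the start, which crosses the start and is not in the printed stretch. Over windows of 250 bases before to 50 after the start, 13 of the 40 members with a promoter in the table held the ETS core (32.5%, against 9.12% of 27025 promoters). The YY1 motif was in 7 (17.5%, against 6.48%), nuclear respiratory factor 1 in 6 (15.0%, against 8.06%), the antioxidant response element in 6 (15.0%, against 12.5%) and the CCAAT box, which is not in capitals above, in 14 (35.0%, against 37.9%). No NGG site within 1000 bases of a member's start lay within 3 mismatches of the Pcx, Me2 or scramble guides, and 1 lay at 3 mismatches from the Me1 guide, at Psma6, whose log2 fold change was -0.06 in ESCs and -0.07 in EpiLCs (adjusted p = 0.25 and 0.22).

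The 3xKD effect differed between states for 8 members, and in each the value in EpiLCs was below that in ESCs. By the interaction term, 8 of 48 members passed downward (16.7%) and none upward, against 5.27% and 4.76% of all genes and 12.2% and 10.2% of genes at 10 CPM or more. The median difference was -0.13 over the members and -0.03 over genes at 10 CPM or more. The differences were -0.62 ± 0.12 for Psme2 (adjusted p = 0.0020), -0.34 ± 0.05 for Psmb7 (adjusted p = 0.00026) and -0.30 ± 0.05 for Psmc5 (adjusted p = 0.00048), followed by Psma7 (-0.29), Psmc6 (-0.28), Psma2 (-0.27), Psmd1 (-0.25) and Psmd11 (-0.24). They had different forms. Psmb7 was at 165 ± 2.61 and 165 ± 3.00 CPM in Neg and 3xKD ESCs but at 188 ± 8.27 and 148 ± 5.13 CPM in EpiLCs. Psmc5 went from 127 ± 2.92 to 143 ± 4.13 CPM in Neg cells and from 119 ± 3.58 to 108 ± 1.55 CPM in 3xKD cells. Both rose from ESCs to EpiLCs in Neg cells and fell in 3xKD cells, but the falls in 3xKD cells were lost with DESeq2, with RLE or upper-quartile factors, with library size alone, with no filter and with length offsets. That of Psmb7 was also lost without any 1 of the 3xKD libraries other than EpiLC replicate 2, and that of Psmc5 without any 1 of them other than ESC replicate 3 or without Neg EpiLC replicate 1 or 2. Psma7 and Psmc6 started higher in 3xKD ESCs and came nearer to Neg in EpiLCs, and Psme2 reached 19.9 and 20.5 CPM in EpiLCs from unequal levels in ESCs. Nek6 overlaps Psmb7 and Smarcd2 overlaps Psmc5 on the opposite strand by 2817 and 1269 exon bases. The state markers differ between the lines in the same comparison, with a lower formative and a higher naive sum in 3xKD than in Neg EpiLCs and a lower naive sum in 3xKD than in Neg ESCs, and their part in these differences was not tested. With library size alone as the scaling, 4 of the 8 passed, and with length offsets 3.

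**Figure D4:**
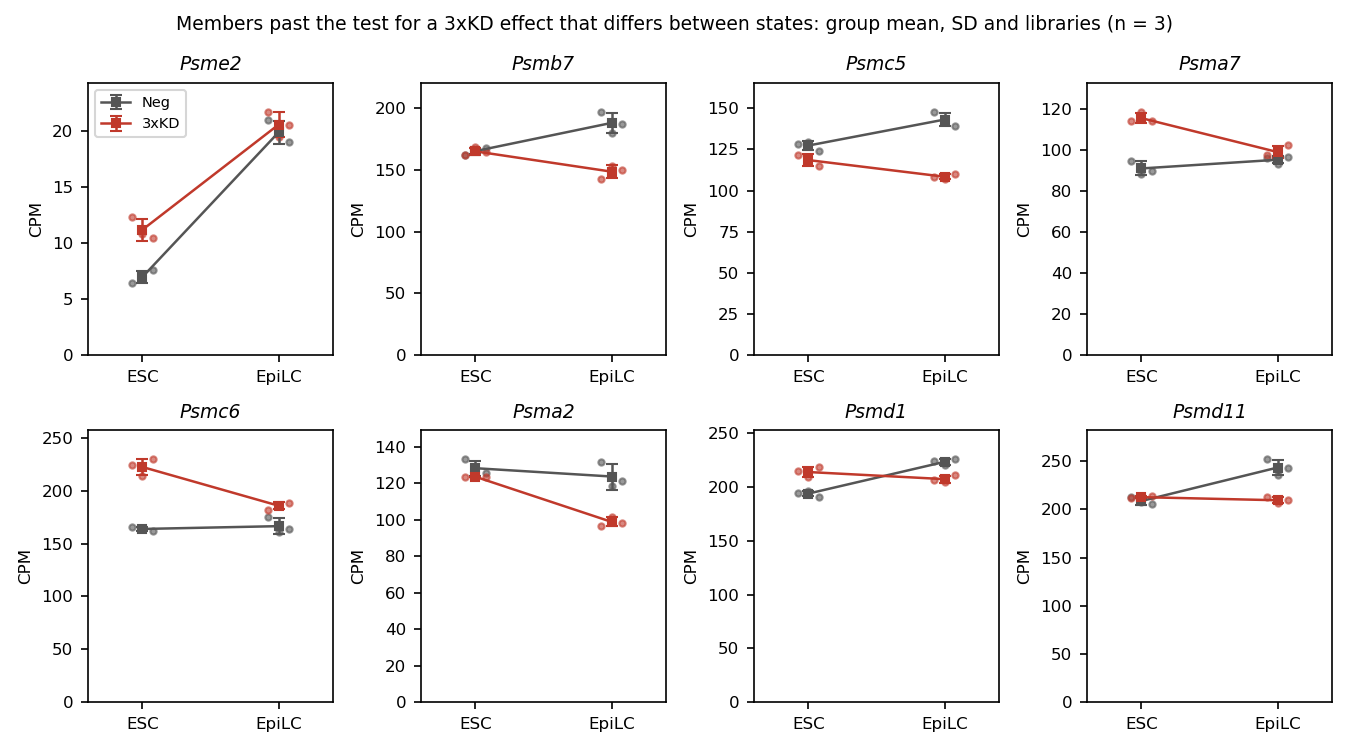
Mean CPM with SD (squares and bars) and libraries (dots, n = 3) in ESCs and EpiLCs for the 8 members whose 3xKD effect differed between states. In Psmb7 and Psmc5 the Neg line (grey) rises and the 3xKD line (red) falls, and in Psme2 the lines meet in EpiLCs.

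The comparison of EpiLCs with ESCs describes the change at exit from naive pluripotency in each line. In Neg cells, 13 members were higher and 5 lower in EpiLCs (median 0.05), against 17.5% and 18.2% of all genes and 30.6% and 32.7% of genes at 10 CPM or more. In 3xKD cells, 8 were higher and 20 lower (median -0.12), against 15.9% and 17.9% of all genes and 26.5% and 33.8% of those with at least 10 CPM. With upper-quartile scaling the counts became 19 and 2 in Neg cells and 9 and 12 in 3xKD cells, so the balance of directions here depends on the scaling. Past the fold limit upward were Psmb8, Psmb10, Psme2 and Psmg2 in Neg cells, joined by Psmb9 and Psmg3 in 3xKD cells, and none passed it downward, against 9.78% and 9.42% of all genes upward and 11.0% and 9.32% downward.

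The inducible genes and their activator made up most of these. Psmb8 had 1, 1 and 0 counts in Neg ESCs and 10, 13 and 10 in Neg EpiLCs, with a ratio of 16.0 (counting interval 4.08 to 137), and 0, 0 and 3 against 14, 21 and 19 counts in 3xKD cells, with a ratio of 18.1 (5.87 to 90.4, both 95%). Both comparisons passed the test (adjusted p = 0.0011 and 0.00020). Psmb10 rose from 2.48, 1.86 and 1.73 to 7.76, 8.12 and 7.65 CPM in Neg cells (1.98 ± 0.18, adjusted p = 6.4e-08) and from 1.97, 1.89 and 2.74 to 9.93, 9.27 and 7.49 CPM in 3xKD cells (2.02 ± 0.17, adjusted p = 4.0e-08). Psme2 rose by 1.50 ± 0.09 in Neg cells (adjusted p = 4.7e-10) and by 0.88 ± 0.08 in 3xKD cells (adjusted p = 2.3e-07). Psmb9 was at 0.70 in Neg cells (adjusted p = 0.042) and rose by 0.78 in 3xKD cells (adjusted p = 0.0069), a call lost with DESeq2 and on leaving out 3xKD ESC replicate 1 or 2 or any 1 of the 3xKD EpiLC libraries. Psme1 was at 0.10 and 0.08 and did not pass (adjusted p = 0.41 and 0.48).

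Of the other classes, the 20S chaperone Psmg2 rose from 16.0 ± 1.30 to 27.3 ± 2.98 CPM in Neg cells (0.78, adjusted p = 7.6e-07) and from 15.9 ± 0.329 to 28.4 ± 1.60 CPM in 3xKD cells (0.83, adjusted p = 3.4e-07). Cep76, which shares 230 exon bases with it on the opposite strand, rose by 0.49 and 0.32. Psmg3 rose from 10.2 ± 1.14 to 14.7 ± 1.33 CPM (0.54, adjusted p = 0.00026) and from 8.05 ± 0.311 to 13.6 ± 0.792 CPM (0.75, adjusted p = 1.1e-05). Psmd13 had the largest fall in both lines. It went from 104 ± 3.99 to 79.7 ± 8.31 CPM in Neg cells (-0.38 ± 0.06, adjusted p = 5.6e-05). In 3xKD cells it went from 112 ± 3.42 to 79.9 ± 3.70 CPM (-0.48 ± 0.06, adjusted p = 4.4e-06). The Psmd13 fall in Neg cells was lost with length offsets, under which no member was lower between states in that line. The main Psmd13 transcript held between 31.9% and 44.0% of the gene's counts in a library. Sirt3 and Cox8b overlap Psmd13 on the opposite strand by 458 and 1231 exon bases. The activator Psme3 rose by 0.19 and 0.16, and Psme4, which was lower in 3xKD cells, was at 0.10 and 0.09 between states and did not pass (adjusted p = 0.023 and 0.063). In the constitutive core, 2 genes rose and none fell in Neg cells (Psmb5 by 0.37, Psmb7 by 0.19), whereas none rose and 8 fell in 3xKD cells, led by Psma2 with -0.32. Gm3375, the Psmb5 copy, also rose by 0.37 in Neg cells. The background for the core and the 19S particle, at 10 CPM or more, was 30.6% higher and 32.7% lower in Neg cells. In 3xKD cells it was 26.5% and 33.8%. In the 19S particle, 4 rose and 5 fell in Neg cells and 1 rose and 11 fell in 3xKD cells, Psmd6 being the 1 that rose there (0.17, adjusted p = 0.0086), a call lost with length offsets and on leaving out any 1 of 3 Neg ESC libraries, 3xKD ESC replicate 2 or 3 or any 1 of the 3xKD EpiLC libraries, and rising by 0.21 in Neg cells. Across both lines, 7 members were higher, 4 lower (Psmc3, Psmd13, Psmd2 and Psmd4) and Psmb7 and Psmc5 in opposite directions. With length offsets none of these 4 lower members passed in Neg cells. The share of all genes past the test in both lines is not given here. The Psmd2 fall in Neg cells was lost with RLE or upper-quartile factors, length offsets, the replicate block (adjusted p = 0.013) and on leaving out Neg ESC replicate 2 or 3, 3xKD ESC replicate 1, any 1 of the Neg EpiLC libraries or 3xKD EpiLC replicate 3. The Psmd4 fall in 3xKD cells was lost with DESeq2, with RLE or upper-quartile factors and without replicate 2 or 3 of either 3xKD group, and that in Neg cells without Neg ESC replicate 2 or Neg EpiLC replicate 1 or 2.

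**Figure D5:**
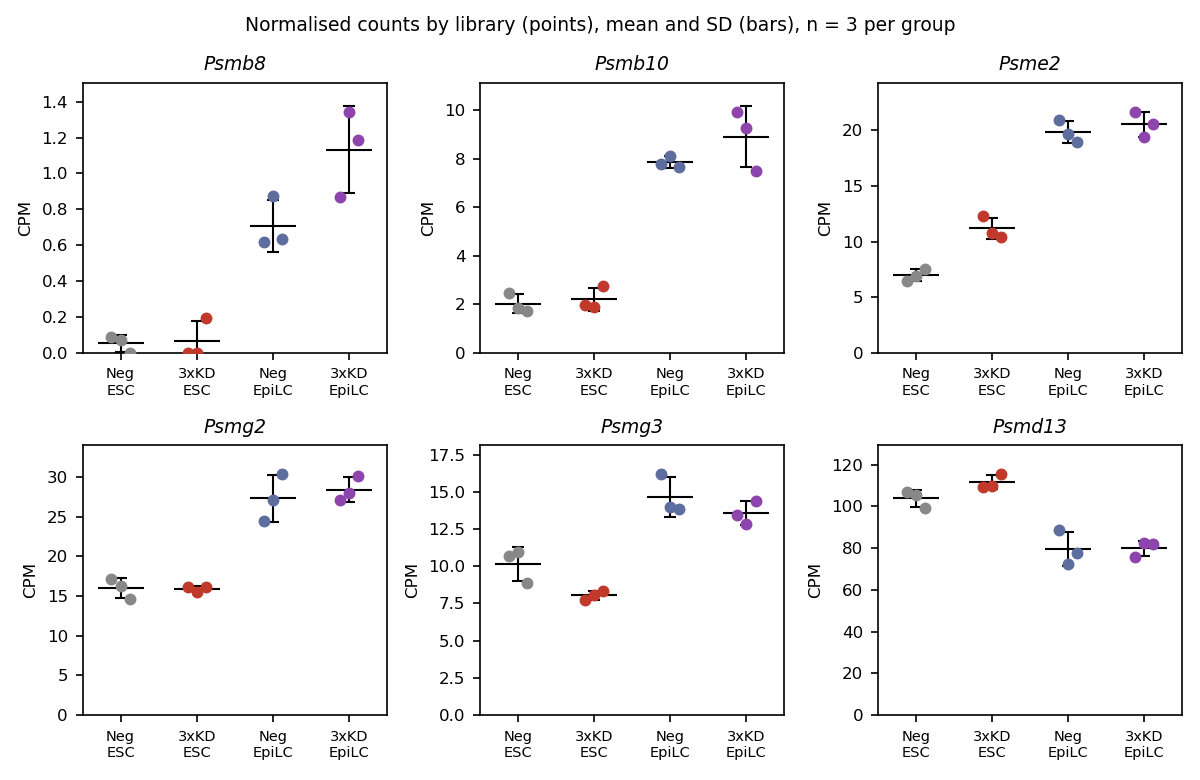
CPM of Psmb8, Psmb10, Psme2, Psmg2, Psmg3 and Psmd13 in each library (points) with group mean and SD (n = 3). EpiLC libraries lie above ESC libraries in the first 5 panels and below them for Psmd13, in Neg and in 3xKD cells.

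Lists of genes around the proteasome are to be read against the background of 27.3% higher and 33.4% lower in ESCs and 25.1% and 35.1% in EpiLCs among genes at 10 CPM or more (15.6% and 16.0%, and 14.3% and 15.6%, of all genes tested). A list of 17 genes was set around the Nfe2l factors, and some of them, such as Vcp, Ngly1 and Syvn1, are not transcription factors. Of the 17, 4 were higher and 7 lower in 3xKD ESCs and 3 and 4 in 3xKD EpiLCs, with medians of -0.10 and -0.01. Nfe2l1 was at 170, 173 and 168 CPM in Neg and 277, 271 and 260 CPM in 3xKD ESCs, a rise of 0.66 ± 0.04 (adjusted p = 4.8e-10), and rose by 0.31 in EpiLCs (adjusted p = 3.7e-06), the difference between states being -0.35 (adjusted p = 0.00015). Ddi2, the protease gene, fell by 0.80 ± 0.04 and 0.78 ± 0.04 (adjusted p = 4.0e-10 and 5.1e-10), and Maff, a small Maf partner of the Nfe2l factors, rose by 1.35 and 1.00. Of 12 proteasome-associated genes, 3 were higher and 3 lower in ESCs and 1 and 6 in EpiLCs. The heat-inducible Zfand2a fell by 0.65 and 0.75, the ubiquitin receptor Adrm1 fell by 0.45 and 0.38, and Midn, whose product brings proteins to the proteasome without ubiquitin, rose by 0.45 in ESCs and fell by 0.20 in EpiLCs (difference -0.65, adjusted p = 3.5e-07).

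The lists below are read against the same background. At 10 CPM or more, 27.3% of genes were higher and 33.4% lower in ESCs, and 25.1% and 35.1% in EpiLCs. Over all genes tested these shares were 15.6% and 16.0%, and 14.3% and 15.6%. Of 12 ubiquitin and shuttle genes, 3 were higher and 1 lower in 3xKD ESCs (among them upward the activating enzyme Uba1 by 0.34 and the shuttle Ubqln1 by 0.27) and none was higher and 1 lower in EpiLCs, the shuttle Rad23b with -0.32. Of 11 antigen presentation and interferon genes, 5 were higher and 2 lower in ESCs and 4 and 2 in EpiLCs. Beside Tap1, H2-K1, which presents peptides, rose by 1.40 and 1.28 and Tap2 by 1.27 and 1.11, while the interferon factor Irf9 fell by 0.92 in ESCs (at -0.54 in EpiLCs its adjusted p of 0.0099 was past the test, but not with the replicate block, where it was 0.015, nor under any other alternative fitted to all libraries except filterByExpr) and Irf1 was at 0.05 in ESCs and fell by 0.70 in EpiLCs. Of 10 cytosolic heat shock genes, 4 were higher and 3 lower in each state. The chaperones Hsph1 and Hspa8 fell by 1.07 and 0.61 in ESCs and by 0.94 and 0.51 in EpiLCs, and Hspa1a rose by 1.16 in ESCs (adjusted p = 2.7e-06) and was at 0.36 in EpiLCs (adjusted p = 0.026).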

How the data were processed

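RNA of 12 libraries was sequenced after rRNA depletion with a directional kit, although the labels name polyA RNA. Per the labels, the authors used Trim Galore 0.6.7 on the single-end reads, mapped with STAR 2.7.9a to GRCm39, and derived transcript-level estimated counts with Salmon 1.10.1. The deposited estimated counts are not normalised, the deposited TPM are scaled by transcript length and library total, and the deposited effective lengths, treated as a score, served as offsets in an alternative.

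The counts of a gene's transcripts were added up and rounded to whole numbers, whereas the study's methods name tximport for this step. Genes reaching 10 counts over all libraries were scaled by TMM, and 1 quasi-likelihood model with a mean per group was fitted to the 12 libraries (edgeR 4.0.16, R 4.3.3). Passing the test means an adjusted p under 0.01, and the fold limit follows the study's methods. CPM use the TMM factors, and a standard error is the log2 fold change over the root of F. On simulated data with 200 genes changed by 1 on the log2 scale, 78.0% were recovered for 3xKD in ESCs (24816 genes) and 73.5% for the difference between states (24819 genes). Most member changes past the test were smaller than 1, and recovery at such sizes was not simulated. The study's methods state biological triplicates. Intervals on counts cover counting error only.

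The members, classes, lists and motifs were chosen with earlier results of these data known. Named are members past the fold limit, the largest change past the test in each class, inducible subunits, activators, the inhibitor, members whose effect differed between states, those near a threshold, and the genes past the fold limit or the 3 largest of each list. Others were added after their values were seen, such as Cep76 and Gm3375. Gene coordinates are from GRCm39 (GENCODE vM39, matching 99.0% of genes), and promoters from RefSeq (GRCm38.p6). Alternatives were other scalings (RLE, upper quartile, library size alone), DESeq2 1.42.0, other filters, length offsets, a replicate block, fits of the compared groups alone, an adjusted p under 0.05, and each library left out. Some items are not reported here.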

Additional observations from a re-analysis of the deposited data

Results flagged for a closer look

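The change with 3xKD differed between EpiLCs and ESCs by a test of the difference itself for 8 members. On the log2 scale the EpiLC effect minus the ESC effect was -0.6225 for Psme2 (adjusted p = 0.0020), -0.3379 for Psmb7, -0.2982 for Psmc5, -0.2904 for Psma7, -0.2828 for Psmc6, -0.2714 for Psma2, -0.2493 for Psmd1 and -0.2444 for Psmd11, by edgeR's interaction term with adjusted p between 0.00026 and 0.0036. Each group had 3 libraries, too few for a search for single outlying libraries.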

How the results depend on the processing

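Of 99 member values past the test, the number no longer past it was 48 with transcript-length offsets, 17 with library size alone, 12 with DESeq2, 12 with upper-quartile factors, 8 with no filter, 6 with RLE factors, 6 of 91 with only the compared groups fitted, 4 with the replicate block and 0 with filterByExpr, and 114 of 1188 on leaving out 1 library. For 77 values of list genes past the test the numbers were 37, 11, 7, 3, 5, 1, 4 of 63, 5 and 0, and 87 of 924. Direction changed once, for Psma3 between states in 3xKD cells with length offsets (0.0345, not past the test). With length offsets, members past the test became 5 higher in 3xKD ESCs, 4 higher and 12 lower in 3xKD EpiLCs (1 past the fold limit), 0 lower between states in Neg cells, 5 higher and 6 lower between states in 3xKD cells, and 3 for the difference between states, and the median log2 fold change became 0.112 between states in Neg cells, -0.0839 in 3xKD cells and -0.165 for the difference. With upper-quartile factors, 2 members were lower between states in Neg cells (median 0.128) and 12 in 3xKD cells (median -0.0503). With library size alone, 4 members passed for the difference (median -0.0561), and the medians were -0.0502 for 3xKD in EpiLCs, 0.00936 between states in Neg cells and -0.0867 in 3xKD cells. At an adjusted p under 0.05, 11 members were lower in 3xKD ESCs and 17 differed between states. On leaving out 1 library, the median ranged from -0.00508 to 0.0614 for 3xKD in ESCs, from 0.0356 to 0.108 between states in Neg cells, and from -0.187 to -0.125 for the difference, the members lower between states in Neg cells numbered 2 to 5, and those higher in 3xKD cells 5 to 8. The cause was not tested for any of these. The Psmb5 fall in 3xKD EpiLCs was lost without Neg replicate 1, that of Psmb6 without Neg replicate 1 or 3 or 3xKD replicate 1, that of Psmd9 without Neg replicate 3, and that of Psmd7 without Neg replicate 1 or 3, 3xKD replicate 1 or 2 or 3xKD ESC replicate 1. The Psma2 difference was lost without Neg ESC replicate 2 or 3, 3xKD ESC replicate 2 or 3, or 3xKD EpiLC replicate 1, and the Psme3 change between states in 3xKD cells without 3xKD ESC replicate 2 or 3xKD EpiLC replicate 1 or 2.

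Same-numbered libraries of different groups correlated between -0.271 and 0.192 in their deviations from the group means, above 0.1 in 7 of 18 pairs, and in 7 of 18 cases best with their own number, so the numbers were not taken as pairing. With the replicate block, the members past the test were 11 higher and 6 lower for 3xKD in ESCs, 7 and 19 in EpiLCs, 13 and 4 between states in Neg cells, 7 and 20 in 3xKD cells, and 0 and 8 for the difference. Low counts limit Psmb8 (0 to 21 per library), Psmb9 (7 to 46) and Psmb11 (1 to 5).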
